A study of Mus musculus with 2 samples.

Results

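The regions described here were the weak end of a macroH2A1.1 map in C2C12 cells, a mouse myoblast line that forms multinucleated myotubes in low serum. In a list of 50887 enriched regions, 5270 autosomal regions carried macroH2A1.1 ChIP reads at less than 1.5 times the scaled input. They were chosen by measured values, namely the ChIP and input read counts of each region: at least 4 input reads, and a ChIP count of under 1.5 times the input count after the input was scaled to the ChIP library by the factor of the list, 1.44988 rounded to 2 decimals. Regions wider than 20 kb and those of chromosome 8 from 80 to 100 Mb were left out. The 5270 regions are called weak regions below, and the 42304 regions that met the same limits at 1.5-fold or more are called stronger regions, which makes 47574 eligible regions in all.

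The study held 1 ChIP library, made with an antibody specific for macroH2A1.1, and 1 input library without antibody, both from wild-type C2C12 cells. The source label of both was myoblast, while their short descriptions carry DM, the abbreviation of the differentiation medium, and the study assigns the profile to myotubes. The list holds no expression values, so the state of the cells could not be checked against marker genes. Regions are given 1-based in mouse build mm9, and no gene annotation or sequence is given for them because the reference at hand was GRCm38.

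MacroH2A proteins are variants of histone H2A that carry a large globular macrodomain behind the histone part. MacroH2A1.1 is the splice isoform of macroH2A1 whose macrodomain can bind ADP-ribose, and it accumulates when muscle cells differentiate. MacroH2A variants are known to occupy long stretches of chromatin at moderate density rather than sharp sites, much of it transcriptionally silent. A region of modest enrichment can still pass a caller where it holds many reads.

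In the whole list, 5743 regions lay under 1.5-fold, or 11.3% of it. Of these, 166 were on chromosome X, 289 were in the chromosome 8 segment, 18 were autosomal and wider than 20 kb outside that segment, and 0 had fewer than 4 input reads. The remaining 5270 made up 11.08% of the eligible regions. They covered 24.1 Mb, or 10.9% of the autosomal length in the list. Together they held 463918 ChIP reads and 236114 input reads, of 4884176 and 1585463 in all listed regions, and their enrichment taken as a single sum was 1.36-fold. With 1 library in each group there was no estimate of replicate error and no test between groups. The intervals given below for the enrichment of a region cover counting error only. Those of medians and of shares take regions of 1 library as independent draws, which neighbouring regions are not.

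The median weak region had 71 ChIP reads and 36 input reads. Over all of them, ChIP reads ran from 26 to 617 and input reads from 13 to 361. Its median enrichment was 1.38-fold, and the lowest was 1.11-fold. The classes were unequal in size: 2290 regions lay between 1.4-fold and 1.5-fold, 1802 between 1.3-fold and 1.4-fold, 1035 between 1.2-fold and 1.3-fold, and 143 under 1.2-fold. The class next to the limit was thus the most populated, with 43.5% of the weak regions, and the others lay below it. Widths had a median of 3800 bp, with quartiles at 3000 and 5400 bp, and stronger regions had a median of 3400 bp.

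How precisely a single weak region was measured was asked from its read counts. The 95% exact (Clopper-Pearson) interval of the enrichment lay wholly above 1-fold in 890 of the 5270 weak regions (16.9%). Over all listed regions this share was 85.4%, and the same counts had entered the choice of the weak regions. The interval included 1.5-fold in 5211 weak regions (98.9%), against 61.1% of all listed regions, so that for most weak regions the side of the limit on which they fell was within counting error. An FDR of 0.01 or less in the authors' list was held by 3303 weak regions (62.7%), against 95.8% of all listed regions. Of the 2132 listed regions with an FDR above 0.01, 1967 (92.3%) were weak regions.

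The caller itself set a lower bound that moved with depth. Its p-value was a Poisson probability whose mean is the input count after scaling, and the largest p-value in the list was 0.045. At 4 input reads the smallest enrichment that could pass was 1.72-fold, and an enrichment under 1.5-fold became callable from 9 input reads on. The bound was 1.38-fold at 13 input reads, 1.25-fold at 36 and 1.15-fold at 100. A region under 1.2-fold could therefore be listed only where input reads were many: the 143 regions of that class had a median of 85 input reads and a median width of 7200 bp, against 31 input reads and 3600 bp in the class from 1.4-fold to 1.5-fold.

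Weak and stronger regions were then compared for the density of reads from each library. Median input density was 9.50 reads per kb in weak regions (95% order-statistic interval over regions 9.43 to 9.57), and 6.11 (6.07 to 6.11) in stronger regions, a ratio of 1.56. The median ChIP density was 18.9 reads per kb (18.75 to 18.97) in weak regions and 20.6 (20.6 to 20.7) in stronger ones, a ratio of 0.914. The 2 sets thus differed much more in input density than in ChIP density. Both counts enter the rule, so these values describe the chosen regions and were not tested. The same directions were found on each of the 19 autosomes, with input ratios from 1.38 to 1.90 and ChIP ratios from 0.881 to 0.961. The split by enrichment itself works in these directions on every autosome, so their recurrence is no separate support.

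**Figure D1:**
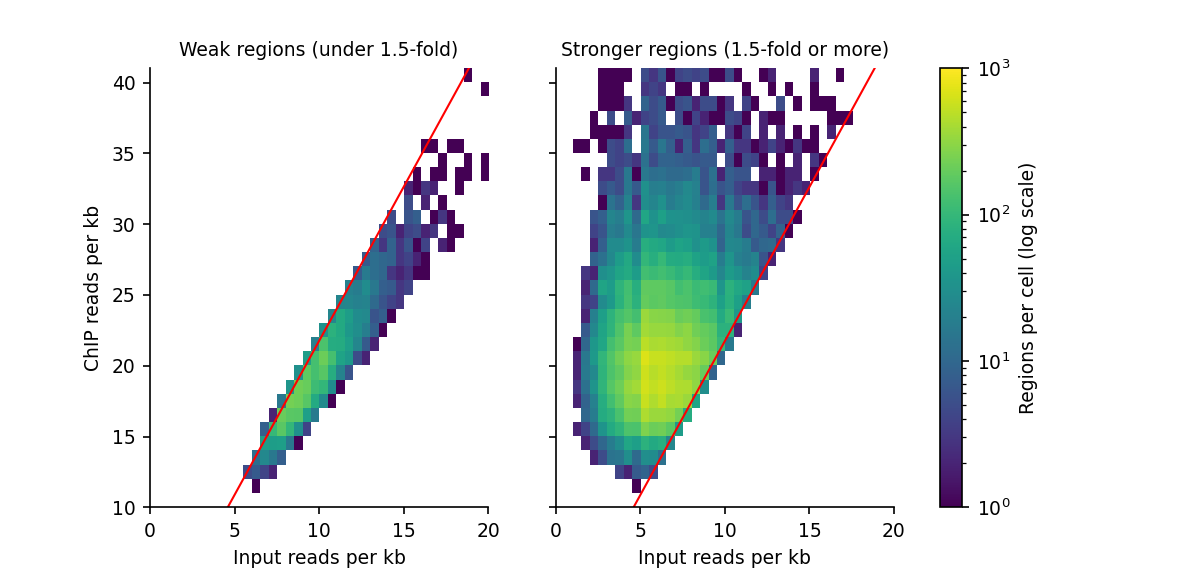
Input reads per kb (horizontal) against ChIP reads per kb (vertical) for weak regions on the left and stronger regions on the right. Colour gives the number of regions in each cell of 0.5 by 1 reads per kb on a log scale, the red line marks 1.5-fold, cells cut by the line appear in both panels, and 8 weak and 163 stronger regions lie outside the axes. Weak regions sit around 9.50 input and 18.9 ChIP reads per kb, to the right of most stronger regions at a similar height.

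Regions were also ordered by enrichment. The order is built from the same ChIP and input counts, so the classes describe the split further and give no separate support. Median ChIP density was 18.8 reads per kb between 1.2-fold and 1.3-fold and 18.8 between 1.4-fold and 1.5-fold, and it was 19.1, 19.5, 20.6 and 22.7 in the classes from 1.5-fold to 1.6-fold, up to 2-fold, up to 3-fold and above. Median input density fell through the same classes, from 10.3 and 8.93 reads per kb in these weak classes to 8.50, 7.50, 5.94 and 4.17 in the stronger ones. The lowest class departed from the other weak classes in ChIP density, at 20.3 reads per kb with 11.8 input reads per kb. This ChIP density was below the 20.6 and 22.7 of the classes at 2-fold or more.

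**Figure D2:**
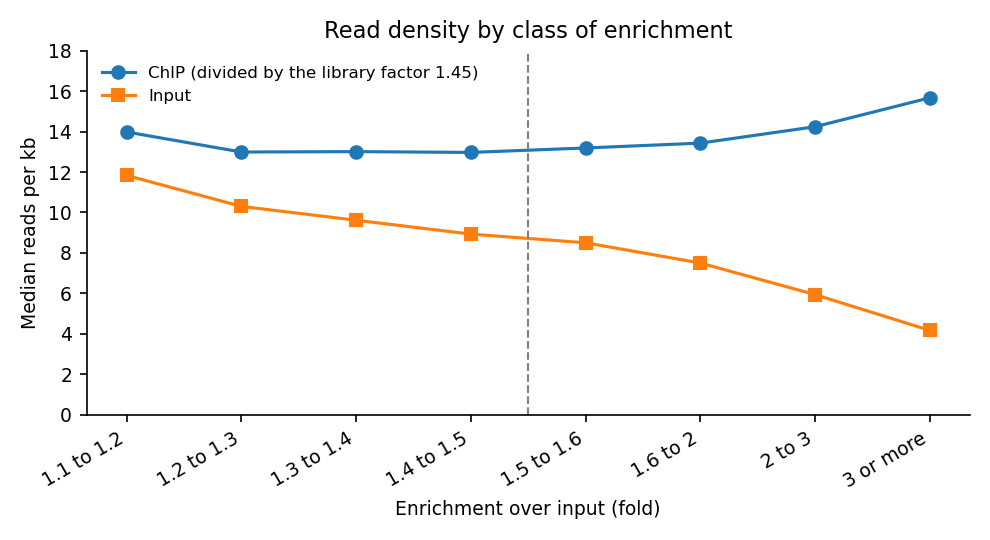
Median reads per kb by class of enrichment, for input (orange) and for ChIP after division by the library factor (blue), with the dashed line at 1.5-fold. The scaled ChIP median lies between 12.97 and 13.98 in the 4 weak classes and reaches 15.7 at 3-fold or more, while the input median falls from 11.8 to 4.17. The classes are built from the same counts.

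Input density was also described by class of width. Among eligible regions under 2500 bp, 6.66% were weak, with 10.6 input reads per kb against 6.0 in the stronger ones. Between 2500 and 4000 bp 11.8% were weak (9.17 against 5.88), between 4000 and 6000 bp 13.7% (9.09 against 6.03), and from 6000 bp on 12.2% (9.79 against 6.57). Weak regions were thus least common among the narrow regions. The bound of the caller is higher where input reads are few, and its part in this share was not tested. Within each class the split by enrichment itself sets the direction of the difference in input density, so these values do not bear on the part of width.

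No break was visible at the limit itself. The 1189 weak regions within 0.05 of it had medians of 8.85 input and 18.96 ChIP reads per kb, and the 1161 stronger regions within 0.05 of it had 8.59 and 19. Just inside the limit, a 7600 bp region on chromosome 6 from 112940201 to 112947800 had 137 ChIP and 63 input reads (1.4997-fold), one on chromosome 15 from 38655201 to 38663600 had 187 and 86, and one on chromosome 11 from 95666801 to 95674000 had 150 and 69. Just outside it, regions on chromosome 1 from 77212201 to 77216800, on chromosome 2 from 45638401 to 45642600 and on chromosome 3 from 19342201 to 19345600 each had 87 ChIP and 40 input reads, exactly 1.5-fold.

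The weak regions with the most ChIP reads were long stretches with much input. The one with the most lay on chromosome 6 from 49163001 to 49180000, where 617 ChIP reads stood against 361 from input. This gave 1.18-fold (1.03 to 1.35), and the authors' list has an FDR of 4.31e-05 for it. A region on chromosome 15 from 102560401 to 102579800 followed with 548 and 336 reads, and its interval of 0.980 to 1.29 included 1. Another, on chromosome 1 from 173483801 to 173501000, had 510 and 309 reads (0.986 to 1.32). The others of the 5 lay on chromosome 15 from 84385201 to 84399400, with 485 and 284 reads (1.02 to 1.37), and on chromosome 5 from 24594601 to 24612000, with 469 and 261 reads (1.06 to 1.447). All 5 had 15.0 to 21.2 input reads per kb, above the 95th percentile of weak regions at 13.2.

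At the other end, the fewest ChIP reads were found in 800 bp on chromosome 11 from 101223001 to 101223800, with 26 ChIP and 13 input reads and an interval from 0.684-fold to 2.92-fold. Regions on chromosome 16 from 37046001 to 37046400 (27 and 13 reads) and on chromosome 19 from 11034001 to 11034800 (28 and 14 reads) came next. The intervals of all 3 ran from below 1-fold to well above it. Their FDR of 0.0499, 0.0322 and 0.0446 in the authors' list treats the input count as exact.

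The lowest enrichments were 1.11-fold on chromosome 10 from 79178601 to 79189600, with 292 ChIP and 181 input reads (0.921 to 1.35), 1.11-fold on chromosome 3 from 142272801 to 142288000, with 326 and 202 reads (0.931 to 1.33), and 1.12-fold on chromosome 15 from 78246801 to 78260000, with 253 and 156 reads (0.913 to 1.37). None of the 3 intervals excluded 1. The widest weak regions all lay on chromosome 15. They extended over 20000 bp from 25367001 to 25387000 with 1.205-fold (1.03 to 1.41), over 19400 bp in the region from 102560401 named above, and over 19200 bp from 56938001 to 56957200 with 1.298-fold (1.103 to 1.531).

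Input density among weak regions ranged from 5.60 to 40 reads per kb. The highest value belonged to 2000 bp on chromosome 3 from 8244801 to 8246800, where 158 ChIP reads met 80 input reads at 1.36-fold (1.03 to 1.81). Regions on chromosome 11 from 34495201 to 34495800 and on chromosome 16 from 37046001 to 37046400 followed, with 35.0 and 32.5 input reads per kb. The lowest values, 5.60, 5.65 and 5.83, belonged to regions on chromosome 3 from 124994401 to 124999400, on chromosome 5 from 137896601 to 137901200 and on chromosome 13 from 37569401 to 37574200, which had 12 to 12.3 ChIP reads per kb and enrichments of 1.4532-fold to 1.49-fold. Regions with few reads of both kinds and regions with many of both were thus found under the same limit.

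An interval wholly below 1.5-fold was found in 59 weak regions (1.12%), a subset examined after the counts had been seen. Over all listed regions the share was 0.22%, but only a region under 1.5-fold can have such an interval. The higher share among weak regions is therefore set by the rule. Of the 5743 listed regions under 1.5-fold, 112 had such an interval. The 59 weak regions held a median of 266 ChIP and 159 input reads over a median of 12000 bp, and 12 of them also had an interval above 1-fold. Their median densities were 13.4 input and 22.7 ChIP reads per kb. The ChIP density of this subset was thus above that of stronger regions, in contrast to the weak regions as a whole. Chromosome 15 held 18 of the 59, and no other chromosome held more than 6. It also held 13.7% of all weak and 7.71% of all eligible regions. Its weak regions had a median width of 4400 bp, against 3800 bp over all weak regions. The part of width in this count was not tested.

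Next, it was asked how the weak regions were spread over chromosomes. Chromosome 15 had the most, with 722 weak regions, or 13.7% of all of them, although it held 7.71% of the eligible regions. Its share of weak regions was 19.7% of eligible regions (95% exact binomial interval 18.4 to 21.0), against 11.08% over all autosomes and 10.4% over the autosomes without it. Chromosome 7 had the lowest share, 55 of 1067 regions or 5.16% (3.91 to 6.66). The shares of the other 17 autosomes ran from 8.41% on chromosome 9 (7.40 to 9.50) to 13.3% on chromosome 17 (11.8 to 15.0). The intervals of chromosomes 15 and 7 overlapped with that of no other autosome, while those of many others overlapped with each other. These values leave out the chromosome 8 segment. With it kept, chromosome 8 was the highest at 19.74% (18.2 to 21.4), which overlaps with chromosome 15. Among regions with 20 or more input reads the share of chromosome 7 was 13.8%, still the lowest, and that of chromosome 15 was 26.3%. These intervals take regions as independent draws, which neighbouring regions are not.

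Input density moved with these shares. Over all eligible regions its median was 7.78 reads per kb on chromosome 15, 5.0 on chromosome 7 and 6.0 to 6.67 on the others. Across the 19 autosomes the share of weak regions and the median input density had a Pearson r of 0.908 and a Spearman rho of 0.756, and an r of 0.679 and a rho of 0.659 without chromosomes 7 and 15. Input reads enter both measures, so these are descriptions without a test. Within the weak regions, median input density by chromosome ran from 9.0 on chromosome 7 to 10.0 on chromosomes 15 and 17. Median enrichment ran from 1.36-fold to 1.41-fold. The limit and the bound of the caller confine the enrichment of every weak region, and input reads enter both. These narrow ranges are therefore no separate result.

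**Figure D3:**
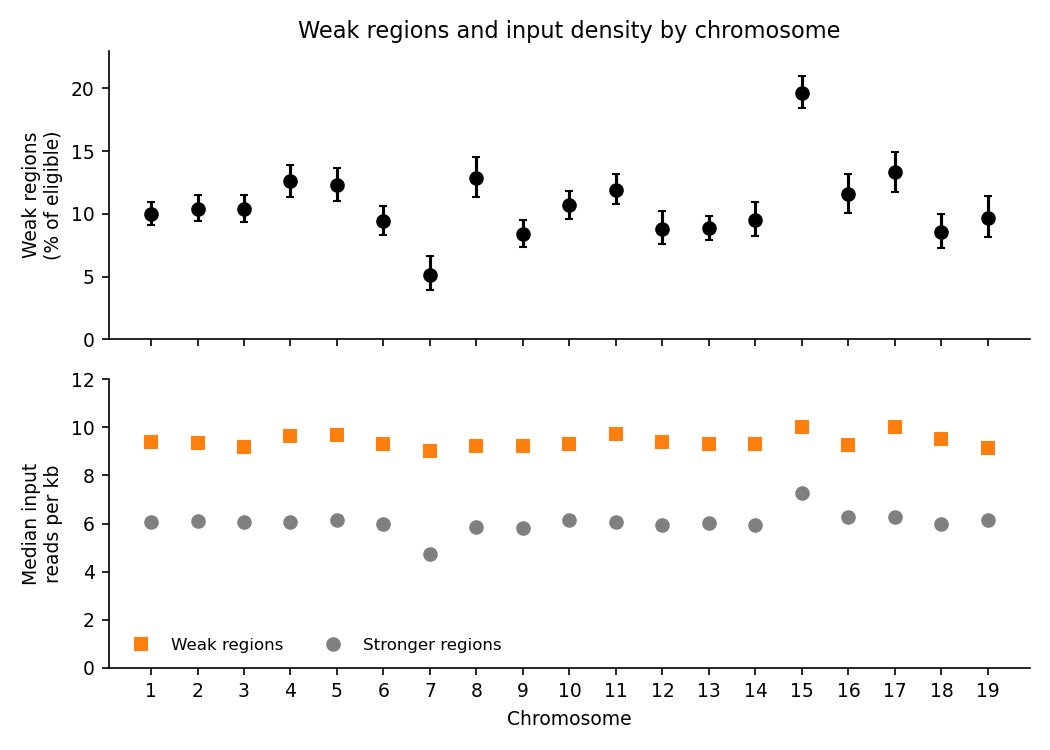
Upper panel: weak regions as a percentage of eligible regions on each autosome, with 95% exact binomial intervals. Lower panel: median input reads per kb of weak (orange) and stronger (grey) regions. With the segment of chromosome 8 left out, chromosome 15 stands highest at 19.7% and chromosome 7 lowest at 5.16% (with the segment, chromosome 8 is at 19.74%), and the stronger regions of these chromosomes have the highest and the lowest input density, 7.27 and 4.75.

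The chromosomes were also described at equal input density, a value that the rule used, so the shares below carry no weight on why chromosomes differed. From 8 to under 9 input reads per kb, 19.8% of the eligible regions of chromosome 15 were weak (16.7 to 23.2), 43.6% of those of chromosome 7 (27.8 to 60.4, 17 of 39 regions) and 24.9% of those of the other autosomes (23.6 to 26.2). From 9 to under 10 the shares were 34.7%, 55.0% and 42.97%, and from 10 to under 12 they were 57.0%, 51.9% and 57.8%. At 12 or more, chromosome 15 had 75.8% (68.5 to 82.1) and the other autosomes 69.8% (66.0 to 73.4). Chromosome 15 was thus below the other autosomes in the classes from 8 to under 10. From 7 to under 8 it was also lower, at 6.23% against 8.69%, with intervals that overlapped. At 12 or more its higher share had an interval that overlapped with that of the other autosomes. Regions with 10 to under 12 input reads per kb made up 13.2% of its eligible regions, 5.39% of those of the other autosomes and 2.53% of those of chromosome 7.

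Position relative to stronger regions was not part of the rule. The list itself has no separation under 800 bp, and 762 weak and 7619 stronger regions lay at exactly that distance from a stronger one. The distance from each weak region to the nearest region of 1.5-fold or more, edge to edge, had a median of 3800 bp (95% order-statistic interval 3600 to 4000), with quartiles at 1200 and 11000 bp. Between stronger regions the median distance to the nearest other one was 2800 bp, with quartiles at 1000 and 8000 bp. Weak regions were farther from a stronger region on 18 of the 19 autosomes, the exception being chromosome 7 with 4600 bp against 5700 bp. A stronger region lay within 5 kb of 3013 weak regions (57.2%) and of 64.8% of stronger regions, and no stronger region lay within 100 kb of 169 weak regions (3.21%) and of 2.02% of stronger ones. Weak regions were thus found mostly close to stronger ones, though a little less closely than these to each other. To the nearest listed region of any enrichment the medians were 3000 bp for weak and 2400 bp for stronger regions. The greater distance was thus not particular to stronger regions.

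Read the other way, the share of weak regions increased with distance. Up to 1 kb from another stronger region 9.02% of eligible regions were weak (8.53 to 9.53), from 5 to 10 kb it was 12.2% (11.4 to 12.96), and beyond 100 kb it was 16.5% (14.3 to 18.9, 169 of 1024 regions). Without chromosome 15 the first and last of these values were 8.23% and 16.1%, and for regions from 2500 to under 4000 bp wide they were 9.92% and 18.1%. The contrast was smaller among regions with an FDR of 0.01 or less, at 6.32% (5.90 to 6.76) and 8.65% (6.93 to 10.6). Median ChIP density fell over the same distances from 21.4 to 19.1 reads per kb and median width from 3800 to 3000 bp, whereas median input density went from 6.47 to 6.25. The part of these changes in the share was not tested.

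**Figure D4:**
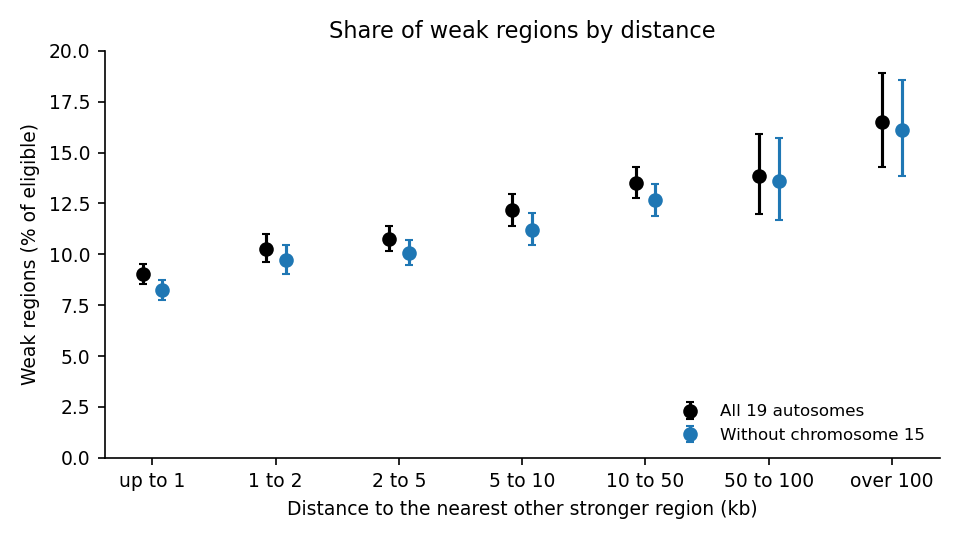
Weak regions as a percentage of eligible regions (vertical) by distance in kb to the nearest other stronger region (horizontal), with 95% exact binomial intervals, for all autosomes (black) and without chromosome 15 (blue). The share goes from 9.02% up to 1 kb to 16.5% beyond 100 kb over all autosomes.

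Each weak region was also set beside its nearest stronger region on the same chromosome. In 169 pairs this region lay more than 100 kb away, so not all pairs share their surroundings. The weak region had the higher input density in 4857 of 5270 pairs (92.2%), with a median ratio of 1.51 (quartiles 1.23 and 1.91). It had the higher ChIP density in 1703 pairs (32.3%), with a median ratio of 0.909 (quartiles 0.787 and 1.05). In the 3013 pairs within 5 kb the median ratios were 1.53 and 0.911, and in the 2257 pairs farther apart they were 1.48 and 0.905. These ratios lay close to those of the medians over all weak and stronger regions. Being the stronger of a pair is set by the rule, so these ratios carry no test.

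The reads of a neighbouring region are not those of the region itself. The stronger region nearest to a weak one had a median input density of 6.33 reads per kb and a median enrichment of 2.22-fold, against 6.09 and 2.34-fold for the nearest other stronger region of a stronger one. By the input density of the nearest stronger region, the share of weak regions was 9.78% under 4 reads per kb (8.98 to 10.6), 9.07% from 4 to under 5 (8.36 to 9.83), 13.2% from 8 to under 9 (12.3 to 14.3) and 13.1% from 9 on (11.99 to 14.3). Without chromosome 15 these values were 9.55%, 9.03%, 12.01% and 11.2%. Next to a region of 1.5-fold to under 1.8-fold 13.1% were weak (12.4 to 13.8), and next to one of 4-fold or more 9.59% (8.73 to 10.5). The share thus differed between neighbourhoods by a few percentage points, and less so without chromosome 15.

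Neighbours in the list were then counted. Of 5270 weak regions, 3832 (72.7%) were flanked on both sides of the list by a region of 1.5-fold or more, 5097 (96.7%) on at least 1 side and 173 (3.28%) on neither. For stronger regions these shares were 80.5%, 98.6% and 1.39%, the first and second above and the last below those of weak regions. Among the listed neighbours of weak regions 15.2% were under 1.5-fold, and among those of stronger regions 10.4%. The former share was the higher on 16 of 19 autosomes, and without chromosome 15 the shares were 13.5% and 9.87%. In separations up to 2 kb they were 13.6% and 9.04%, and over 50 kb 17.8% and 12.8%. Single weak regions made up 3847 of the 4474 series, while 497 series held 2 weak regions, 102 held 3 and 28 held 4 to 6.

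The longest series held 6 weak regions in succession and occurred at 2 places. On chromosome 1 they spanned 70.6 kb from 173442001 to 173512600, with 1428 ChIP and 829 input reads in all and an enrichment of 1.19-fold. Their widths went from 5000 to 17200 bp, their enrichments from 1.14-fold to 1.27-fold and their input densities from 14.3 to 18.97 reads per kb, each above the 95th percentile of weak regions. The last of the 6, from 173502601 to 173512600, was the only one whose interval excluded 1 (1.01 to 1.54). On chromosome 2 they spanned 64.4 kb from 166372001 to 166436400, with 918 and 456 reads, enrichments from 1.17-fold to 1.49-fold and input densities from 10.9 to 15.6. The series on chromosome 1 was distant from stronger regions, by 110600 bp or more.

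In bins of 1 Mb, 1473 of the 1943 bins with an eligible region held a weak one, and 337 bins were enough to hold 50% of all weak regions. The matching number of bins for eligible regions is not given here, so this value does not show clustering of weak regions. The most were found on chromosome 8 from 50 to 51 Mb, where 24 of 83 eligible regions were weak, on chromosome 15 from 56 to 57 Mb with 24 of 80, and on chromosome 15 from 42 to 43 Mb with 22 of 64. Of the 20 bins with the most weak regions, 16 were on chromosome 15, which held 7.71% of eligible and 13.7% of weak regions. This ranking is by number, and a bin with more eligible regions can hold more weak ones. Stronger regions in the leading bins had median input densities of 7.78, 8.05 and 7.89 reads per kb, above the 6.11 of all stronger regions. Among bins with 10 or more eligible regions the highest shares were 6 of 11 on chromosome 1 from 142 to 143 Mb (54.6%, interval 23.4 to 83.3), and 6 of 12 on chromosome 8 from 100 to 101 Mb and on chromosome 10 from 28 to 29 Mb. The bin on chromosome 8 borders the segment that was left out. With so few regions a bin, these shares are loosely determined.

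Along the length of the chromosomes there was little order. With each chromosome cut into 10 equal lengths, the share of weak regions lay between 8.89% in length 7 from the start (8.13 to 9.69) and 12.4% in length 10 (11.6 to 13.3), with median input densities of 6.25 and 6.50 reads per kb. It was 10.7% in length 1.

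Some weak regions stood alone. The farthest from a stronger region was 2800 bp on chromosome 1 from 116560801 to 116563600, with 48 ChIP and 24 input reads, 1.38-fold (0.828 to 2.35), at 4009800 bp. On chromosome 4 from 29012001 to 29015200, 49 and 26 reads gave 1.2997-fold (0.792 to 2.18) at 2709000 bp. On chromosome 8 from 53154401 to 53157200, 47 and 22 reads gave 1.47-fold (0.871 to 2.57) at 1581000 bp. Each of these had below the median read counts of weak regions, and an interval that included 1.

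Finally, the places where the study followed up macroH2A1.1 by ChIP-qPCR were located among the weak regions by their mm9 positions. They belong to Fn1, which encodes the matrix protein fibronectin, to Itga11, which encodes the collagen-binding integrin alpha 11, and to Col1a1, which encodes the alpha 1 chain of type I collagen. None of these 5 amplicons lay in a weak region. Weak regions covered only 24.1 Mb in all, so this absence says little about the 5 places. Whether the amplicons lay in a stronger region is not given here. The nearest weak region to the Itga11 amplicon was 34341 bp away, on chromosome 9 from 62558601 to 62565400, with 138 ChIP and 64 input reads and 1.49-fold (1.098 to 2.03). For Fn1 it was 112960 bp away on chromosome 1 from 71835201 to 71841800, with 122 and 65 reads and 1.29-fold (0.9503 to 1.78). Around Col1a1, weak regions lay no closer than 131186 bp. Those nearest were on chromosome 11 from 94968001 to 94971600, with 79 and 42 reads and 1.297-fold (0.881 to 1.93), and from 94601201 to 94603000, with 42 and 21 reads and 1.38-fold (0.799 to 2.45).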

How the data were processed

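ChIP and input DNA of C2C12 cells were sequenced by the authors, with 1 library each. Per the submitters' processing notes and the study's methods, reads were aligned to mm9 with Bowtie2 2.0.6 and regions were called against input at an FDR of 0.05. The methods name SICER and the deposited list is named after epic, and its regions start on a grid of 200 bp and lie at least 800 bp apart, whereas the methods give a window of 600 and a gap of 1200, so the settings behind the list are uncertain. The deposited read counts per region are not scaled. The p-value and FDR, the log2 fold change and the score (100 times the log2 value) were also deposited by the authors. The log2 value served as a check of the enrichment, and the score was not used further. Library totals are not in the list, so overall depth is unknown.

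Enrichment was computed as the ChIP count over the input count times a library factor, which is 1.44988 in the list and was rounded to 2 decimals. Intervals are 95% exact Clopper-Pearson intervals, and those of medians come from order statistics. The smallest callable enrichment used the Poisson p-value, which came within 1% of the deposited values in the 50840 regions where it is not at the floating-point floor. Distances were counted in bases between edges. Stronger regions in distances were autosomal regions at 1.5-fold or more of any width and input count. By a fixed rule, the regions named are the 5 with the most ChIP reads, the 3 at the other extremes of reads, enrichment, input density, distance and width, those nearest to the limit, the longest series and the 3 leading bins. The rule keeps 1 longest series, and the one tied with it on chromosome 2 was named after its values were seen, as were the 59 regions singled out by their interval and the regions nearest to the amplicons. The weak regions, gene lists and measures were chosen with earlier results of these data known. The gene-based comparisons (fusion genes, myogenic factors, gene bodies) were not run, since the reference was GRCm38. Functions were tested on simulated data. Python 3.11.15, numpy 2.4.6, pandas 2.3.3, scipy 1.17.1 and matplotlib 3.10.9 were used.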

Additional observations from a re-analysis of the deposited data

How the results depend on the processing

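Of 79 recomputed values, 35 stayed within the interval of the reported value or within 1.5 times the count, 43 moved and 1 reversed.

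The number of weak regions was 2980 at a limit of 1.4-fold and 3303 at an FDR of 0.01. The input ratio of weak to stronger regions was 1.6 at 1.4-fold, 1.53 at 1.6-fold, 1.399 with 20 or more input reads, 1.51 at an FDR of 0.01, 1.57 with the chromosome 8 segment, 1.53 relative to each chromosome and 2.20 for the 59 regions with an interval below 1.5-fold. The ChIP ratio was 0.922 at 1.4-fold and 0.925 with 20 or more input reads, and it reversed to 1.101 in those 59 regions. These 59 were singled out after the data had been seen and have many reads, with medians of 266 ChIP and 159 input reads. The input ratio to the nearest stronger region was 1.545 at 1.4-fold, 1.46 at an FDR of 0.01, 1.73 with stronger regions of 2-fold or more, 2.18 in the 59 regions and 1.54 without chromosome 15. The median distance to a stronger region was 3400 bp at 1.4-fold, 3200 bp at an FDR of 0.01, 7400 bp with stronger regions of 2-fold or more, 8600 bp between centres and 5200 bp in the 59 regions. The distance among stronger regions was 2600 bp at 1.4-fold, 3000 bp at 1.6-fold, 2200 bp with 20 or more input reads and 7600 bp between centres. It was below that of weak regions in each setting run for both. A stronger region on at least 1 side was found for 98.8% at 1.4-fold, 95.1% at 1.6-fold, 98.8% at an FDR of 0.01, 96.0% with the segment, 78.5% with stronger regions of 2-fold or more and 93.2% of the 59 regions. Intervals above 1-fold were held by 8.19% at 1.4-fold, 26.8% at 1.6-fold and 27.0% at an FDR of 0.01.

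The highest share on a chromosome was 11.7% at 1.4-fold, 26.7% at 1.6-fold, 26.3% with 20 or more input reads and 14.2% at an FDR of 0.01, each on chromosome 15, and 13.3% on chromosome 17 without chromosome 15. With the segment kept it was 19.7% on chromosome 8. The lowest share, on chromosome 7 in every setting run, was 2.25%, 7.22%, 13.8% and 3.16% in these first 4 settings. The cause of these shifts was not tested. Leaving out chromosome 15 and singling out the 59 regions were chosen after seeing the data, as were the FDR, width and chromosome 15 settings for the share by distance.

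No paired analysis was possible because the design has a single library on either side, and no library was left out in turn for the same reason. A weak region with 71 ChIP and 36 input reads has counting error on both.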
